A study of Brassica napus with 12 samples.

Results

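Among the ribosome-bound transcripts of canola (Brassica napus) leaves, 87 gene IDs stood far higher in every library of the PEG experiment than in any library of the EUE experiment. They were chosen by their levels in CPM, the count of an ID per 1000000 counts of its library: the lowest of the 6 PEG libraries had to reach 1 CPM and at least 4 times the highest of the 6 EUE libraries. Of 60756 IDs in all, 24218 had at least 1 CPM in every PEG library outside the stretch of ERC numbers 35951 to 36108, and the 87 were 0.359% of these. A further 3 IDs met the levels but lay in that stretch and were left out. Of all 60598 IDs outside it, the members made up 0.144%. Because the levels chose the members, the gap between the experiments is described and not tested.

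The PEG experiment held the selected epiline PEG-1, the selected epiline PEG-2 and their control line, with 2 libraries each. The EUE experiment held the selected EUE epiline and a control line of its own, with 3 libraries each. All plants were 26 days old, had spent 2 weeks on agar and 12 days in soil, and received no treatment, and polysomal RNA was taken from the fourth leaf. According to the design text, selection was on low respiration and on NAD(P)H content, which was high in the chosen lines. That text speaks of 2 epilines with 3 replicates each, which differs from the labels. The labels were followed here. The labels name the same cultivar for all 12 samples, and each group stands for a single line. How many plants stand behind a library, and what the letters PEG and EUE mean, is not given in the sources used here. The experiment and the origin of its lines cannot be told apart, since no line was measured in both.

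Canola is a polyploid that joins the genomes of a pair of ancestors, relatives of turnip and of cabbage, so most of its genes exist in several closely similar copies. Lines of the species are known to differ in which of these copies they carry and express. Polysomal RNA is the mRNA bound by ribosomes, so a level here reflects the amount of a transcript together with the share of it that was being translated. In leaf tissue, fewer cells of a type and less RNA per cell cannot be told apart. The deposited file pairs no ID with a gene name, and a search of RefSeq's gene table for canola matched 0 IDs, so no function is given, and markers of leaf could not be looked up. ERF and ERC are ID prefixes of the deposited file and are not read here as names of gene families. An ID holds an ERF number, an ERC number, or a joined pair of both. CPM is not corrected for transcript length, so levels are compared between libraries for an ID and not between IDs.

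Library totals ran from 36210542 to 42696798 counts. Every deposited count was even, as if both mates of each read pair had been counted. An EUE library with no count for an ID was therefore given a floor of 3 read pairs, 6 counts, which came to between 0.141 and 0.163 CPM and covers counting error only.

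Summed over the 87 members, the levels came to between 827 and 1086 CPM in the PEG libraries and between 43.7 and 62.8 CPM in the EUE libraries. Without ERF83242, the member of highest level, the sums were between 714 and 948 CPM in PEG and between 29.9 and 44.8 CPM in EUE libraries. All 87 had counts in every PEG library, whereas between 48 and 54 of them had any count in an EUE library. The members fell into 37 that were absent in EUE, with at most 0.1 CPM in every EUE library, and 50 that were only lower there. Of the 37, 23 had no count in any EUE library, and the other 14 had at most 7 read pairs over all 6. Of the 50, 34 had counts in all 6 EUE libraries and 12 averaged 1 CPM or more there. The absent members had a median of 3.66 CPM over the PEG libraries, from 1.38 to 63.9 CPM. The members that were only lower had a median of 5.83 CPM over the PEG libraries, from 1.33 to 145 CPM, and a median of 0.256 CPM over the EUE libraries.

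**Figure D1:**
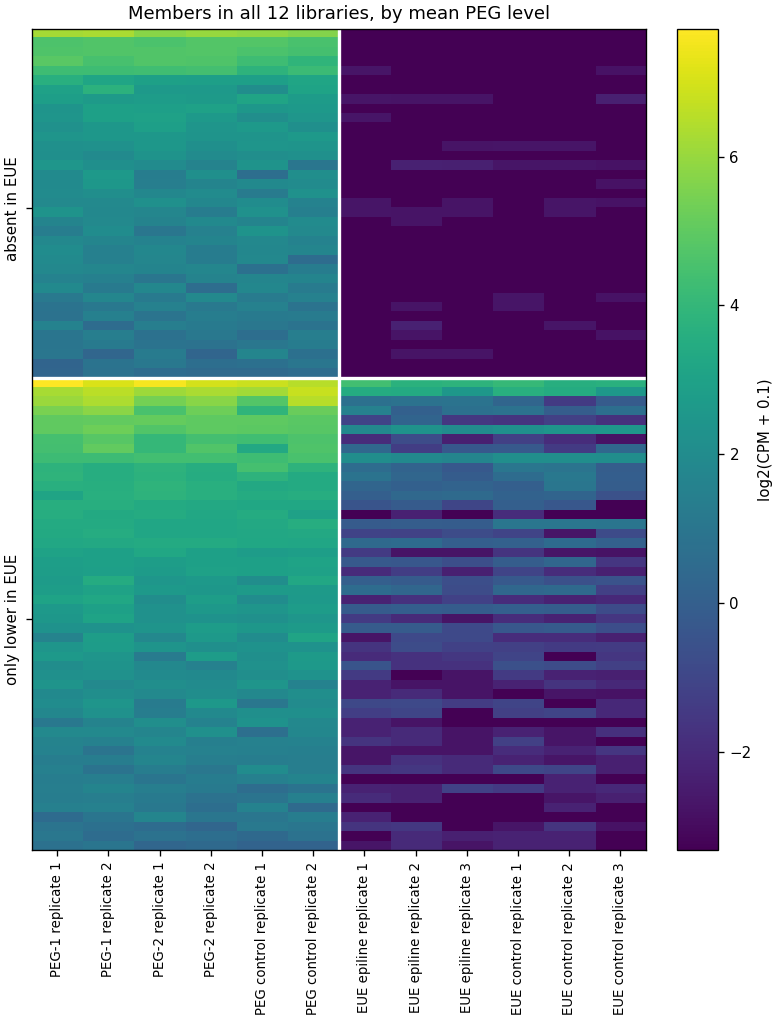
Level of each of the 87 members (rows) in the 12 libraries (columns), as log2(CPM + 0.1), with the 37 absent in EUE above the white line and the 50 only lower there below it. The 6 PEG libraries, on the left, carry all members, and the 23 members with no EUE count appear as unbroken dark rows on the right.

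The number of IDs fell steeply towards the threshold of 4 and more slowly over the wider ranges beyond it. Among the 24218 IDs with at least 1 CPM in every PEG library, the lowest PEG level was below the highest EUE level in 22973. It was 1 to 2 times that level in 1030 IDs, 2 to 3 times in 97 and 3 to 4 times in 31. Beyond the threshold, 26 IDs lay between 4 and 8 times, 15 between 8 and 16 times, 12 between 16 and 32 times and 11 at 32 times or more, and the remaining 23 had no EUE count. The member nearest to the threshold of 4 was ERF87313, at 4.01 times, and the ID just outside was ERC57598, at 3.95 times. At the other limit, ERC54804 was the member with the lowest level, 1.05 CPM in its lowest PEG library. ERF90672 missed that limit with 0.992 CPM. The rule was failed because of 1 library alone by 53 IDs.

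**Figure D2:**
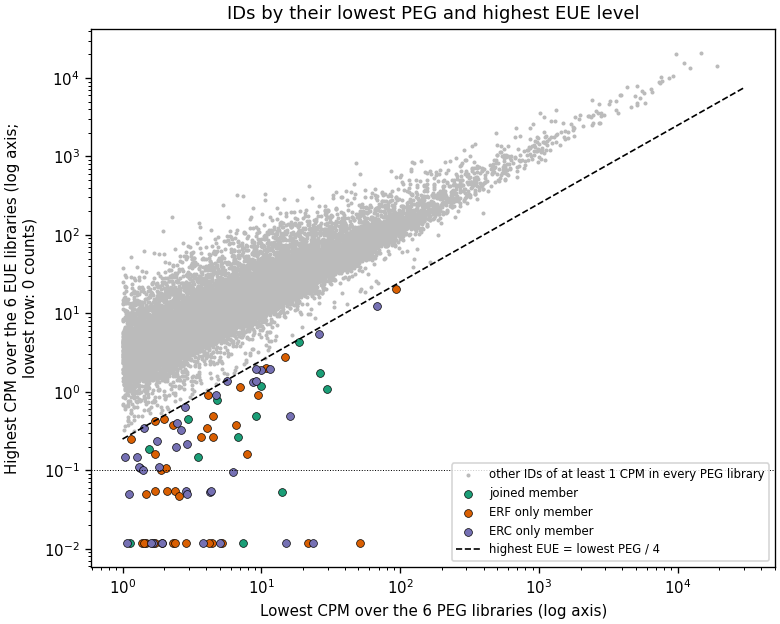
Lowest CPM over the 6 PEG libraries (x axis, log scale) against the highest CPM over the 6 EUE libraries (y axis, log scale) for the 24218 IDs with at least 1 CPM in every PEG library. The 87 members, coloured by ID class, lie below the dashed line of 4 times, and the lowest row holds the 23 with no EUE count, which is drawn at an arbitrary low value.

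Among the absent members, ERF76920 had the highest CPM. It was at 75.7 and 80.4 CPM in PEG-1, 53.3 and 64.5 CPM in PEG-2 and 58.3 and 51.2 CPM in the PEG control, and at 0 counts in all 3 EUE epiline and all 3 EUE control libraries. With the floor in each EUE library it was at least 417-fold higher in the PEG libraries, taking the means over the 6 libraries of each experiment. Both PEG-1 libraries lay above both PEG-2 and both control libraries.

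ERF61206 and ERC59102 were steadier over the PEG libraries. ERF61206 had 25.7 and 26.0 CPM in PEG-1, 26.5 and 26.8 CPM in PEG-2 and 23.8 and 21.7 CPM in the PEG control. ERC59102 had 24.5 and 25.9 CPM in PEG-1, 24.3 and 26.7 CPM in PEG-2 and 26.8 and 23.6 CPM in the PEG control. ERC59102 was the steadiest of all members, its highest PEG library being 1.13 times its lowest, and its 3 PEG groups overlapped. Neither ID had a count in any EUE library, and with the floor they were at least 164-fold and at least 165-fold higher in the PEG libraries.

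ERC27148 was the other ERC-only ID of high level among the absent members. It was at 29.7 and 22.4 CPM in PEG-1, 26.6 and 25.8 CPM in PEG-2 and 19.2 and 15.1 CPM in the PEG control, with no EUE count, so that it was at least 151-fold higher in the PEG libraries. All 4 libraries of the selected lines lay above both control libraries. This was so in 12 of the 87 members, ERF61206 among them, and in 8.38% of the IDs with at least 1 CPM in every PEG library. The reverse was seen in 3 members and 4.61% of those IDs.

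Only 3 joined IDs were absent in EUE. The highest of them, ERF90756-ERC29593, had 19.6 and 19.3 CPM in PEG-1, 20.3 and 21.3 CPM in PEG-2 and 14.2 and 18.1 CPM in the PEG control. It had 2 counts in EUE epiline replicate 1, 2 counts in EUE control replicate 3 and none in the other 4 EUE libraries. The ratio of PEG to EUE read pairs, scaled to the library totals, was 1106, with an exact 95% interval for counting error from 306 to 9141. ERF80153-ERC59652 had 12.3 and 8.89 CPM in PEG-1, 7.68 and 7.40 CPM in PEG-2 and 7.50 and 8.77 CPM in the PEG control. It had no EUE count and was at least 57.1-fold higher in the PEG libraries. Over the 23 members with no EUE count, this bound ran from 9.01-fold to 417-fold, with a median of 24.4-fold, and it followed the PEG level because the floor was nearly the same for all.

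Among the members that were only lower, ERF83242 had the highest CPM in both experiments. It was at 210 and 138 CPM in PEG-1, 188 and 128 CPM in PEG-2 and 113 and 93.3 CPM in the PEG control. In the EUE experiment it was at 20.5, 13.0 and 13.8 CPM in the epiline and 16.9, 12.0 and 12.8 CPM in the control, so the fold of the experiment means was 9.78. The EUE groups overlapped, while all 4 libraries of the PEG selected lines lay above both PEG control libraries.

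ERC55550 was the second by CPM. It had 77.4 and 96.3 CPM in PEG-1, 68.5 and 80.5 CPM in PEG-2 and 72.6 and 111 CPM in the PEG control. It had 10.9, 10.7 and 5.62 CPM in the EUE epiline and 12.5, 10.8 and 5.86 CPM in the EUE control. Its PEG groups overlapped, and replicate 3 was the low library of both EUE groups.

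The joined ID ERF88714-ERC59903 was far apart between the experiments and steady within the PEG libraries. It had 32.6 and 33.6 CPM in PEG-1, 34.6 and 31.1 CPM in PEG-2 and 31.0 and 29.6 CPM in the PEG control. It had 0.372, 1.09 and 0.244 CPM in the EUE epiline and 0.215, 0.326 and 0.187 CPM in the EUE control, a fold of the means of 78.9. EUE epiline replicate 2 alone held 44 of its counts, against 8 to 14 in the other EUE libraries. Without that library the ratio of the lowest PEG to the highest EUE level, 27.1 with all libraries, was 79.7.

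ERF70475-ERC27654 and ERF79970 varied most over the PEG libraries among the 22 members that averaged 10 CPM or more there. In both, PEG control replicate 1 was the lowest PEG library, and replicate 1 was also below replicate 2 in PEG-1 and PEG-2. ERF70475-ERC27654 had 66.1 and 80.9 CPM in PEG-1, 42.4 and 54.2 CPM in PEG-2 and 26.7 and 93.4 CPM in the PEG control. Its EUE levels were 1.59, 1.69 and 1.76 CPM in the epiline and 1.13, 0.272 and 0.796 CPM in the control. The PEG control thus held both its lowest and its highest PEG library, and every EUE epiline library lay above every EUE control library. ERF79970 had 44.5 and 56.2 CPM in PEG-1, 23.5 and 39.2 CPM in PEG-2 and 14.7 and 36.5 CPM in the PEG control. In EUE libraries it had 2.82, 0.945 and 1.56 CPM in the epiline and 1.67, 0.869 and 1.50 CPM in the control, where the groups overlapped.

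ERC26990 completed the named IDs of its class. It had 32.7 and 38.6 CPM in PEG-1, 26.0 and 31.2 CPM in PEG-2 and 30.3 and 28.8 CPM in the PEG control. It had 3.51, 5.03 and 3.91 CPM in the EUE epiline and 4.57, 5.32 and 5.43 CPM in the EUE control, a fold of the experiment means of 6.75. Over the 50 members with more than 3 EUE read pairs in all, that fold ran from 5.13 to 237, with a median of 21.6. The largest belonged to ERF68040, named after its values were seen, which was at 11.7 and 10.3 CPM in PEG-1, 11.1 and 9.83 CPM in PEG-2 and 11.1 and 7.82 CPM in the PEG control. It had 0.0995 CPM in EUE epiline replicate 2, 0.161 CPM in EUE control replicate 1 and no count in the other 4 EUE libraries. The smallest belonged to the joined ID ERF59889-ERC53021, which averaged 20.3 CPM in PEG and 3.95 CPM in EUE libraries. The 12 members that averaged 1 CPM or more in EUE libraries had folds from 5.13 to 50.2.

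**Figure D3:**
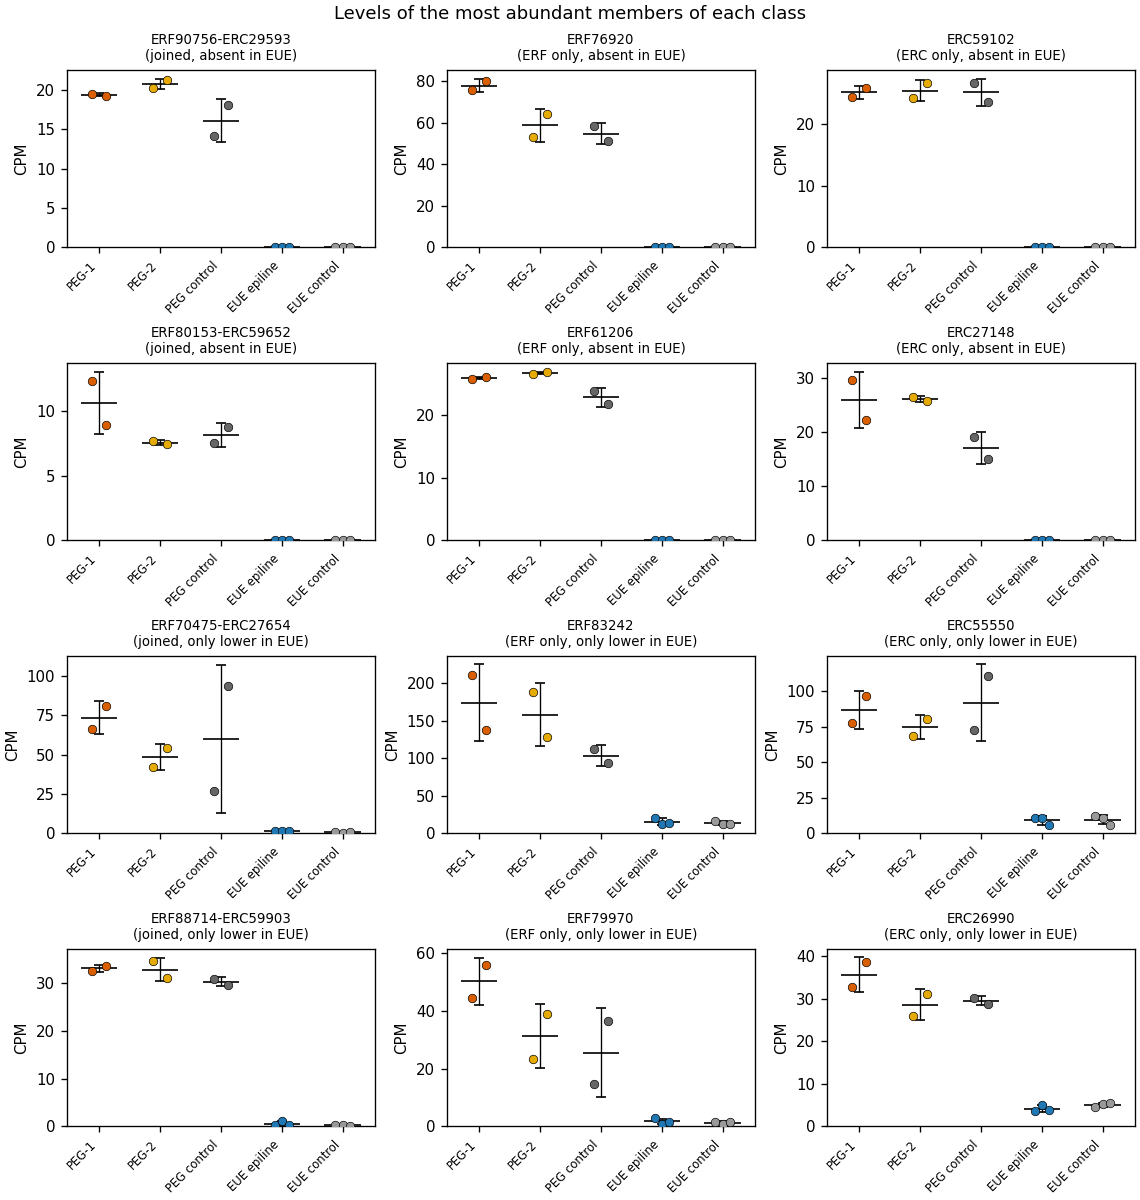
CPM of the 2 members of highest PEG level in each ID class, absent in EUE (upper 2 rows) and only lower there (lower 2 rows). Shown are 1 point per library, the group mean as a line and the SD as error bars (n = 2 per PEG group, n = 3 per EUE group). Each panel has its own axis from 0. The PEG points stand apart from the EUE points in every panel. For ERF70475-ERC27654 and ERF79970 replicate 1 is below replicate 2 in every PEG group, and lowest in the PEG control.

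Within the PEG experiment the members varied somewhat more than the IDs they were drawn from. The highest PEG library was a median of 1.65 times the lowest, against 1.57 times over the 24218 IDs with at least 1 CPM in every PEG library. It reached 2 times or more in 28 of the 87 members, 32.2%, and in 22.3% of those IDs. The members also had lower CPM, with a median of 4.40 CPM over the PEG libraries against 9.22 CPM, not corrected for transcript length. The part of level in the wider spread was not tested. ERF64386 had the widest range, 4.18 times, with 3.82 and 6.22 CPM in PEG-1, 2.45 and 4.47 CPM in PEG-2 and 1.49 and 4.33 CPM in the PEG control. PEG control replicate 1 was again its lowest library, and replicate 1 was also below replicate 2 in PEG-1 and PEG-2. Across the members, PEG control replicate 2 was at least 2 times replicate 1 in 8, against 3.86% of the IDs with at least 1 CPM in every PEG library. The reverse held in 3 members and 7.03% of those IDs. The 8 were ERF68867-ERC46943, ERF68952-ERC26470, ERF70475-ERC27654, ERF86183-ERC54817, ERF64386, ERF79363, ERF79970 and ERF95572. They were named after their values were seen. In all of them but ERF86183-ERC54817, replicate 1 was below replicate 2 in PEG-1 and PEG-2 too, which was not tested. PEG control replicate 1 held the lowest PEG level of 24 members, 27.6%, where it did so for 25.5% of those IDs.

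The members differed in ID class from the IDs they were drawn from. They comprised 13 joined, 37 ERF-only and 37 ERC-only IDs, so that 14.9% were joined. Joined IDs made up 55.5% of the 24218 IDs with at least 1 CPM in every PEG library. Put the other way, 0.0968% of the joined, 0.617% of the ERF-only and 0.772% of the ERC-only IDs at that level were members. Over all IDs at that level, the median over the PEG libraries, not corrected for length, was 12.1 CPM for joined, 7.09 CPM for ERF-only and 5.98 CPM for ERC-only IDs. Within each of 3 ranges of level, a smaller share of joined than of other IDs were members. Between 1 and 5 CPM these shares were 3 of 3128 joined, 20 of 2324 ERF-only and 22 of 2132 ERC-only IDs. At 20 CPM and above they were 4 of 4634 joined, 4 of 1213 ERF-only and 5 of 814 ERC-only IDs. No test of the class shares was run, since the IDs are not independent.

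**Figure D4:**
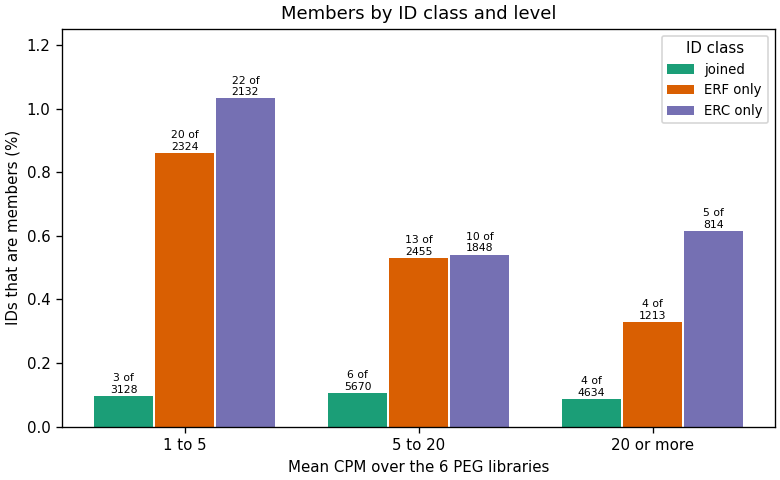
Share of IDs that are members (bars from 0, in percent) by ID class and by mean CPM over the 6 PEG libraries, among IDs with at least 1 CPM in every PEG library, with the counts printed above each bar. In every range of level the bar for joined IDs is the lowest.

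The reverse rule, at least 1 CPM in every EUE library and at least 4 times the highest PEG library, was met by 75 IDs, 21 of which had at most 0.1 CPM in every PEG library. Joined IDs were 14.9% of the 87 members and 14.7% of the 75. ERF-only IDs were 42.5% of the members and 65.3% of the 75. This difference was not tested. The class shares of all IDs with at least 1 CPM in every EUE library are not given here, so the 75 are not set against their own background.

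By ID number the members were found over the whole range, with a few neighbouring pairs. When the IDs at that level were put into 10 groups by ERF number, each group held between 2 and 9 members, and so did 10 groups by ERC number. Of the 50 members with an ERF number, 2, or 4%, lay within 5 numbers of another member, as did 6, or 12%, of the 50 with an ERC number. Of the other IDs with at least 1 CPM in every PEG library, 1.02% lay that close to a member by ERF number and 1.09% by ERC number, so the members' shares were the higher, and the difference was not tested. Whether the numbers follow the order of genes on the chromosomes is not given in the sources used here. These 4 neighbouring pairs were named after their values were seen. ERC32609 averaged 22.2 CPM in PEG and 0.215 CPM in EUE libraries, and ERC32611 averaged 4.32 CPM in PEG libraries with no EUE count. ERC38875 averaged 6.13 CPM in PEG and 0.00886 CPM in EUE libraries, where it had counts in 1 library, and ERC38876 averaged 11.6 CPM in PEG and 1.02 CPM in EUE libraries. ERC60882 and ERF73479 were only lower in EUE libraries, and their neighbours ERC60883 and ERF73481 had no EUE count. In all 4 pairs 1 ID was thus absent in EUE and the other only lower there.

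The other IDs beside a member mostly did not follow it. The 197 IDs within 5 ERF numbers of a member had a median log2 difference between PEG and EUE means of -0.08 (with 0.1 CPM added to each mean), against -0.14 over all other IDs with at least 1 CPM in every PEG library and an ERF number. For 198 neighbours by ERC number the median was -0.18, against -0.14. A log2 difference of 1 or more was found in 22 of the 197, 11.2%, where 3.44% of those other IDs had it, and in 11 of the 198, 5.56%, against 3.05%. These shares were not tested.

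In 3 places a member lay within 5 numbers of an ID that met the reverse rule, and these too were named after their values were seen. This was 2% of the members with an ERF number and 4% of those with an ERC number, against 1.21% and 0.699% of the other IDs. ERF61597 averaged 3.77 CPM in PEG and 0.00781 CPM in EUE libraries, while ERF61594 averaged 0.160 CPM in PEG and 3.81 CPM in EUE libraries. The sum of the 2 IDs was 3.93 CPM in PEG and 3.82 CPM in EUE libraries. ERC36845 averaged 2.20 CPM in PEG and 0.0181 CPM in EUE libraries, and ERC36848 averaged 0.0450 CPM in PEG and 2.75 CPM in EUE libraries, so that their sum was 2.24 CPM in PEG and 2.77 CPM in EUE libraries. At the third place ERC26990, described above, averaged 31.2 CPM in PEG and 4.63 CPM in EUE libraries. Its neighbour ERC26991 averaged 0.607 CPM in PEG and 6.68 CPM in EUE libraries, and the sum was 31.9 CPM in PEG and 11.3 CPM in EUE libraries. The 2 rules chose these pairs for opposite differences, so the ratio of a sum lies between theirs by construction and nothing is read from it. Whether the IDs of such a pair are copies of each other is not known from the files, and how reads were divided between similar copies was not tested.

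The comparisons within an experiment did not enter the rule as contrasts, and they were tested in edgeR's quasi-likelihood fit over all 12 libraries and 36410 IDs. The rule still favours members whose PEG libraries lie close together, because a limit is set by the lowest of them. It also favours members without a high EUE library, because the highest EUE library enters the rule too. The first comparison, of PEG-1 with the PEG control, asks whether the members differ between that selected line and its control. None of the 87 passed an adjusted p of 0.05 in edgeR, as none of all IDs did (0% called), and the smallest adjusted p among the members was 1. DESeq2 called 0 of them, where it called 0.363% of all IDs higher and 0.0357% lower, and edgeR with the replicate number as a block called 0 of them and 0.00275% of all IDs higher. At an unadjusted p under 0.05 in edgeR, 1 member was higher, with 1.88% of all IDs, and 0 were lower, with 1.72%. This count of 1 in both directions was 5 with the libraries of the same experiment alone, 9 with the replicate block and from 0 to 5 with 1 library left out, the 5 being without PEG control replicate 2 and the 0 without PEG-1 replicate 1 or without PEG control replicate 1. The median log2 fold change was 0.04 over the members and -0.03 over all IDs tested. The members ran from -0.75 to 0.91, so that none of them reached a 2-fold difference, which 8.96% of all IDs did. All IDs tested include IDs below 1 CPM in a PEG library, which the rule leaves out, so nothing is read from this contrast. The PEG-1 libraries were both above the 2 control libraries in 23 members, 26.4%, against 18.4% of all IDs, and below both in 10, 11.5%, against 12.2%. The smallest unadjusted p of a higher member was that of ERF83242. It averaged 174 ± 51.0 CPM in PEG-1 and 103 ± 14.0 CPM in the PEG control (SD, n = 2 each), a log2 fold change of 0.71 (SE 0.30, edgeR adjusted p = 1). Over the alternatives its adjusted p ran from 0.115, in edgeR with the replicate block, to 1. The smallest p of a lower member was that of ERC52911, at 12.7 ± 1.60 CPM in PEG-1 and 17.9 ± 5.65 CPM in the PEG control (SD, n = 2 each). The log2 fold change was -0.54 (SE 0.35, edgeR adjusted p = 1), and the control value rested on replicate 1, at 21.9 CPM, against 13.9 CPM in replicate 2.

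PEG-2 was compared with the same 2 control libraries. Again 0 of the 87 members passed in edgeR, with 0% of all IDs called, and 0 passed in DESeq2, which called 0.0439% of all IDs higher and 0.00549% lower. At an unadjusted p under 0.05 in edgeR, 1 member was higher, with 1.03% of all IDs, and 0 were lower, with 0.849%. This count was 3 with the libraries of the same experiment alone, 5 with the replicate block and from 0 to 2 with 1 library left out: 0 without PEG control replicate 1 or any 1 library of PEG-1 or PEG-2, and 2 without EUE epiline replicate 1. The median log2 fold change was -0.03 over the members and -0.01 over all IDs, and the members ran from -0.86 to 0.64. Both PEG-2 libraries lay above both controls in 18 members, 20.7%, against 13.9% of all IDs, and below both in 14, 16.1%, against 12.2%. ERC27148 had the smallest p of the higher members, at 26.2 ± 0.555 CPM in PEG-2 and 17.1 ± 2.91 CPM in the PEG control (SD, n = 2 each). The log2 fold change was 0.61 (SE 0.25, edgeR adjusted p = 1). ERF58321 had the smallest p of the lower members, at 2.35 ± 0.586 CPM in PEG-2 and 4.28 ± 1.04 CPM in the PEG control (SD, n = 2 each), a log2 fold change of -0.86 (SE 0.43, edgeR adjusted p = 1). The groups did not overlap for either ID. Among the members, 0 differed by 2-fold or more between any 2 of the PEG group means, against 3.08% of the IDs with at least 1 CPM in every PEG library.

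The third comparison, of the EUE epiline with its own control, asks whether the low levels left in that experiment differ between selected and control plants. None of the 87 members passed in edgeR without pairing of libraries, as none of the 36410 IDs did (0% called). All 87 had passed the filter through their PEG libraries, and the 23 with no EUE count could not be called here. The counts out of 87 are therefore given without reading them as a result about the members. At an unadjusted p under 0.05, 3 members were higher, with 3.54% of all IDs, and 4 were lower, with 0.634%. Of these 7, 5 had no more than 10 counts in any EUE library. The count of 7 was 2 with the EUE libraries alone, 4 with counts divided by 2 and 13 with the replicate block. The epiline libraries all lay above the control libraries in 1 member, against 5.11% of all IDs, and below in 4, against 1.7%. DESeq2 called 0 members higher and 1 lower, against 1.02% and 0.0275% of all IDs. The edgeR fit blocked on replicate number takes the EUE libraries as paired. It called 0 members higher and 1 lower, against 0.179% and 0.011% of all IDs.

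Of the 87 members, 27 had at least 10 counts in at least 3 EUE libraries, all of them among those only lower there, and the others had fewer counts than that. None of the 27 passed in edgeR without pairing of libraries, as none of the 34065 IDs with such counts did. At an unadjusted p under 0.05, 1 of the 27 was higher, with 3.46% of those IDs, and 1 was lower, with 0.517%. The median log2 fold change was -0.02 over the 27 and -0.03 over those IDs. Every EUE epiline library lay above every control library in 1 of the 27, against 5.12% of those IDs, and below in 2, against 1.6%.

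The lower of these was ERC38915, which was even within every group. It had 0.797, 0.846 and 0.831 CPM in the EUE epiline and 1.94, 1.90 and 1.87 CPM in the EUE control, from 30 to 34 and from 70 to 80 counts. Its levels were 10.6 and 10.8 CPM in PEG-1, 9.19 and 9.22 CPM in PEG-2 and 9.92 and 11.5 CPM in the PEG control. The EUE groups did not overlap, with 0.825 ± 0.0251 CPM in the epiline and 1.90 ± 0.0315 CPM in the control (SD, n = 3 each). The log2 fold change was -1.26 (SE 0.19), and the edgeR adjusted p was 0.272. With the replicate number as a block, which called 0.188% of IDs with such counts higher and 0.0117% lower, the adjusted p was 0.0468 in edgeR. DESeq2, which called 1.05% of them higher and 0.0294% lower, gave an adjusted p of 0.000352. Without EUE epiline replicate 1 it was 0.0404 in edgeR, and over all alternatives it ran from 0.000352 to 1, so the call depends on the fit. In PEG-1 and PEG-2 the same ID had log2 fold changes of -0.05 and -0.23 against their shared control (SE 0.21 and edgeR adjusted p = 1 in each). The higher of the 2 was ERF88714-ERC59903, at 0.570 ± 0.459 CPM in the EUE epiline and 0.243 ± 0.0733 CPM in the EUE control (SD, n = 3 each), with overlapping groups. The log2 fold change was 1.16 (SE 0.46, edgeR adjusted p = 0.938, from 0.175 to 1 over the alternatives).

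**Figure D5:**
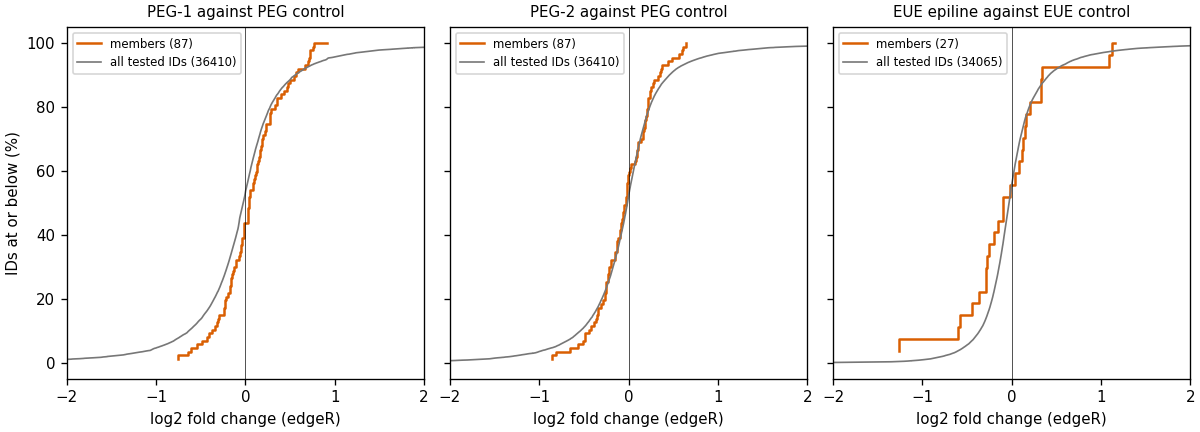
Cumulative share of IDs (y axis, percent) by edgeR log2 fold change (x axis) for the members (orange) and all tested IDs (grey) in the 3 comparisons of a selected line with its own control. The EUE panel holds only IDs with at least 10 counts in at least 3 EUE libraries, 27 of them members. The members' curves cross 50% near 0 in all 3 panels and stay within 1 log2 unit in both PEG panels.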

How the data were processed

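Polysomal RNA from leaf 4 of 12 samples was sequenced at BGI, per the labels' protocols. GSNAP and SAMtools are named in the submitters' processing notes, without versions or roles. The sources used here do not give the genome, annotation, counting program or use of strand, so reads of near-identical copies or overlapping genes may have been split, dropped or given to 1 copy. The deposited file holds raw read counts per gene ID from the authors. All 12 columns were matched by name and 0 belonged to other samples.

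Membership used CPM of the column totals. Tests used edgeR 4.0.16 (TMM, filterByExpr with a minimum count of 10 over the 5 groups, quasi-likelihood F-test, 1 mean per group, Benjamini-Hochberg over 36410 IDs), with DESeq2 1.42.0 in R 4.3.3 as an alternative. All 87 members passed the filter, through their PEG libraries. The named IDs were, per class and EUE status, the 2 of highest PEG level; per contrast, the smallest p in each direction; the highest EUE level; the IDs at each limit; and the widest and narrowest PEG range. The members and this rule were chosen with earlier results of these data known.

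Replicates are called biological in the labels. No 2 agreed within sampling noise (chi-square per ID from 16.9 to 54.9). Same-numbered EUE libraries deviated together (r from 0.60 to 0.73 over 17455 IDs), so their numbers were taken to pair them. Same-numbered PEG libraries did so too (r from 0.53 to 0.69), but with 2 per group the deviations of a group are equal and opposite, so that these numbers were not taken to pair them. This pairing comes from the data and not from the labels. The main fit did not use it, and the replicate block, run as an alternative, did. That block also held the PEG replicate numbers, so its PEG results rest on a pairing that was not taken here.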

Additional observations from a re-analysis of the deposited data

Results flagged for a closer look

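Groups of 2 or 3 libraries are too small to look for a single outlying library. For 3 members every library of 1 selected line lay on the other side of its control than every library of a second line. Opposite sides in PEG-1 and PEG-2 were seen in 2 of the 87 members and in 1.31% of the IDs with at least 1 CPM in every PEG library, and PEG-2 above with the EUE epiline below in 1 member and 0.103% of those IDs. The 3 IDs were picked for this pattern, and no difference between the lines was tested. ERC26387 had 2.87 and 2.82 CPM in PEG-2 and 2.70 and 2.59 CPM in the PEG control. In the EUE experiment it had 2 counts in each epiline library and 6, 4 and 10 counts in the control libraries. Its log2 fold change in PEG-2 exceeded that in the EUE epiline by 1.85, and the EUE side rests on 3 read pairs in the epiline. The other 2 differ between lines that share their control libraries. ERC44105 had 6.88 and 8.00 CPM in PEG-1 and 6.16 and 5.63 CPM in PEG-2, with 6.34 and 6.39 CPM in the PEG control, and its log2 fold changes differed by 0.30. ERF75333-ERC58846 had 10.4 and 11.4 CPM in PEG-1, 9.24 and 9.22 CPM in PEG-2 and 9.76 and 10.1 CPM in the PEG control, and its log2 fold changes differed by 0.21.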

How the results depend on the processing

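The count of 87 members was 98, all 87 among them, with TMM-scaled library sizes, which moved the median log2 difference between PEG and EUE levels by 0.13. It was 107 and 60 with a lowest PEG level of 0.5 and 2 CPM, and 118 and 61 with 3 and 8 times the highest EUE level. Leaving out 1 library gave 88 to 110, the highest without PEG control replicate 1. The 37 absent members were 42 with TMM-scaled library sizes, and 51 and 22 with a lowest PEG level of 0.5 and 2 CPM. Their number was 23 with no EUE count at all, 48 with up to 0.2 CPM, and 37 to 40 without 1 library. With the replicate block edgeR called 0 members in PEG-1, 0 in PEG-2 and 1, ERC38915, in the EUE epiline, and the block changed no other call. DESeq2 also called 1 member there. Leaving out 1 library gave 0 to 1 calls in the EUE epiline, 1 being without EUE epiline replicate 1, and 0 in both PEG lines; the cause was not tested. With DESeq2's size factors, no filter, the libraries of the same experiment, or counts divided by 2, edgeR called 0 members in all 3 comparisons. At this depth an EUE library with no count for an ID only bounds its level, at 0.141 to 0.163 CPM.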
